A study of Rattus norvegicus with 415 samples.

Results

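The samples described here are the extremes of an index of the circadian clock in rat adipose tissue, set by the transcripts of Arntl and Dbp. The index of a sample was log2(FPKM + 1) of Arntl (also called Bmal1, ENSRNOG00000014448) minus log2(FPKM + 1) of Dbp (ENSRNOG00000021027), where FPKM is a number of reads scaled by the length of the gene and the depth of the library. The samples were selected on these measured levels: the 25.06% of all samples with the highest index are the high set, the 25.06% with the lowest index are the low set, and the 49.88% between them are the middle. The sets are of equal size and together hold 50.12% of the samples. The pairing of both identifiers with their gene symbols came with the rule that chose the samples, and no file used here tests it. All samples were adipose tissue of outbred rats aged 17 weeks, whose genotypes differ between animals, and the labels give no treatment, depot or hour of collection. The series belongs to a study of how genetic variation bears on metabolic traits. RNA came from snap-frozen tissue and was sequenced as single-end reads. Since the labels put all samples in 1 group, the sets are not groups of the study, and their names say nothing about a time of day.

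Each sample title holds a number and a suffix, whose meaning the labels do not give. Gaps of more than 500 in the numbers separated 3 blocks, from 57215 to 59114 (39 samples, 9.40% of all), from 60213 to 63056 (55.9%) and from 63906 to 64305 (34.7%), and the block was a covariate in every comparison of genes. The labels do not say whether samples with the same number came from 1 animal, so the p-values measure the spread between these samples, which may in part be technical. In bulk tissue, fewer cells of a type and less RNA per cell cannot be told apart.

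The circadian clock is a feedback loop of transcription found in nearly all mammalian cells, adipocytes included. ARNTL pairs with CLOCK or NPAS2 and activates genes through E-boxes in DNA, among them the Per and Cry genes, whose proteins inhibit the pair, and the nuclear receptors of the REV-ERB family, which repress Arntl at ROR elements. Dbp encodes a PAR bZIP transcription factor that is itself activated through E-boxes and acts on D-boxes. In tissues with a running clock, Arntl and Dbp transcripts are therefore known to peak at nearly opposite times of the day, and in adipose tissue the clock is known to modulate lipid storage and release.

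The promoters of both genes are shown because the loop is described to act on elements in DNA, which need not lie within these windows. Each runs from 250 bases before to 50 bases after the gene's start in the RefSeq annotation of GRCr8, on the plus strand of chromosome 1. The capitals mark matches to the core of a ROR element with 1 free base, TAGGTNA, searched on both strands.
Arntl, chr1:176766078-176766377: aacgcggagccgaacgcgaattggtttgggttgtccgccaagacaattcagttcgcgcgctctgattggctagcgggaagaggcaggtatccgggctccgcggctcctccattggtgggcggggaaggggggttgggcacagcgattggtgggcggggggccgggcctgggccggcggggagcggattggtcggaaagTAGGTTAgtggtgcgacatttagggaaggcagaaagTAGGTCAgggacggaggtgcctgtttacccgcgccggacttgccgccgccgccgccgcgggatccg
Dbp, chr1:105312006-105312305: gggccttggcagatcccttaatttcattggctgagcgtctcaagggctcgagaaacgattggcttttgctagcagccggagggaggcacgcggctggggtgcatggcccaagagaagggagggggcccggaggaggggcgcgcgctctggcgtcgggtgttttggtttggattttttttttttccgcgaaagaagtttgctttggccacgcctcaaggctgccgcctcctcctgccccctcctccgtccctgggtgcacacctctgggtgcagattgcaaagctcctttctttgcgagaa

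The Arntl promoter held 2 matches to TAGGTNA. The first, with the letters TAGGTTA, began at -52 from the start, and the second, with the letters TAGGTCA, began at -16. Of all the promoters in the table, 8.70% of 33469 windows of the same length held at least 1 match. The exact core TAGGTCA is among the sequences that the pattern with the free base covers. It was found in 2.63% of promoters, and the wider pattern was added after the sequence was seen. The Dbp promoter held no match to either pattern. The letters of an E-box (CACGTG, in 6.42% of promoters) and of a D-box (TTATGNAA, in 3.66%) were found in neither window, which says only that those letters are not there.

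Arntl, which enters the index with a plus sign, was higher in the high set with some overlap. Its FPKM ran from 7.71 through a median of 23.4 to 39.8 in the low set, from 25.8 through 34.8 to 44.2 in the middle, and from 34.4 through 41.6 to 49.6 in the high set. Mean Arntl was 22.6 ± 6.31 FPKM (SD over the samples of the set) in the low set and 41.8 ± 3.37 FPKM (SD) in the high set, and the ratio of the medians was 1.77. Of the low set, 1 sample lay within the range of the high set, and 34 high-set samples (32.7%) lay within the range of the low set. That sample had 39.8 FPKM of Arntl and 50.04 FPKM of Dbp, while the next highest Arntl level of the low set was 32.7 FPKM. Its Dbp level was above the median of the low set.

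Dbp separated the sets fully. Its FPKM ran from 23.4 through a median of 34.2 to 85.8 in the low set, from 12.4 through 19.1 to 28.99 in the middle, and from 8.67 through 13.5 to 18.04 in the high set. Mean Dbp was 39.2 ± 14.2 FPKM (SD) in the low set and 13.3 ± 1.51 FPKM (SD) in the high set, a ratio of 2.54 between the medians. Dbp exceeded Arntl in FPKM in 89 samples, all of them in the low set (85.6% of it). These values chose the samples and are given as a description, with no test. The reads behind these values differed between the sets. A low-set sample held on average 303.81 Arntl reads (over 2973 bp) and 302.94 Dbp reads (over 1702 bp), and a high-set sample 575.26 Arntl reads and 105.20 Dbp reads, with as few as 31 Dbp reads. Counting error was thus larger for Dbp than for Arntl in the high set, and of similar size on average in the low set.

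**Figure D1:**
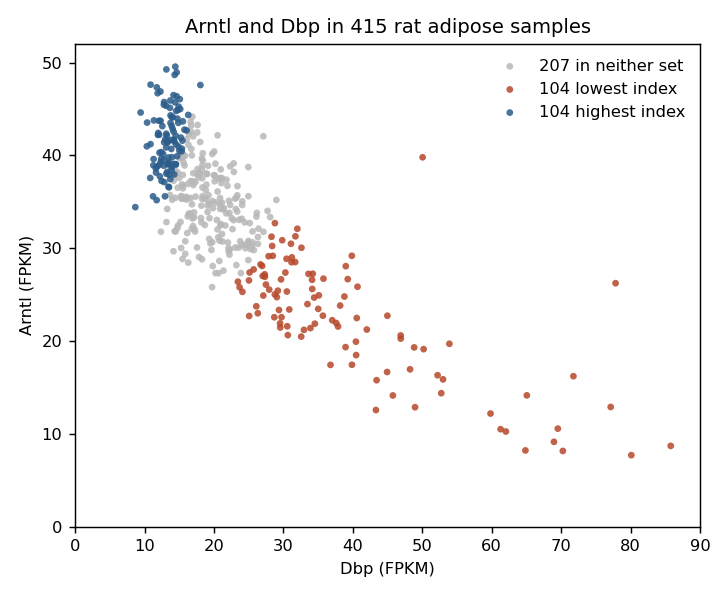
Arntl against Dbp in FPKM, 1 point per sample, coloured by set. The low set spreads along both genes, whereas the high set is a compact cloud at low Dbp, and no low-set sample reaches the Dbp range of the high set.

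The sets differed in shape. The index ran from -3.22 through a median of -0.46 to 0.18 in the low set and from 1.34 through 1.57 to 2.13 in the high set, so that the low set spanned 3.40 units and the high set 0.79. The middle spanned 1.15 units. Over all samples the median index was 0.85, and the distribution had a long tail on the low side: 30 samples lay below an index of -1 and 12 below -2. The limits cut through a continuum. The last sample inside the low set had an index of 0.179 (Arntl 32.7, Dbp 28.8 FPKM) and the first outside it 0.188 (27.3 and 23.9 FPKM). At the other limit the first sample inside the high set had 1.343 (40.4 and 15.3 FPKM) and the last outside 1.339 (38.3 and 14.5 FPKM).

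Within the low set the 2 genes moved against each other as they did over all samples, and within the high set they did not. Pearson's r between their log2 levels was -0.860 over all samples, -0.777 in the low set, -0.305 in the middle and 0.285 in the high set. By block it was -0.860, -0.886 and -0.604. These are descriptions without a test: the limits on the difference of both genes shape the r inside each set, and all samples share the scaling of the deposited values.

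The blocks contributed unequally to the sets. The low set took 16 samples from block 1, 79 from block 2 and 9 from block 3, or 41.03%, 34.1% and 6.25% of these blocks. The high set took 4, 44 and 56 samples, or 10.3%, 18.97% and 38.9%. The median index was 0.41, 0.59 and 1.25 in the 3 blocks, and the lowest index in block 3 was -0.64, whereas blocks 1 and 2 reached -2.96 and -3.22. All samples below an index of -1 stood in block 1 (7 samples) or block 2 (23 samples). By title suffix, 25.7%, 23.6%, 28.6% and 29.2% of the samples with suffix 3, 4, 5 and 6 were in the low set. The share in the high set varied more, with 28.6%, 21.3% and 34.3% for suffixes 3, 4 and 5 and 3 of 24 samples for suffix 6, and the other suffixes stood on 1 sample each. Whether suffix and set are related was not tested.

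Over all samples the index was higher at higher title numbers, taken as ranks (Pearson's r 0.487, Spearman's rho 0.481, permutation p = 1e-05 for each, the smallest that 100000 permutations can give, two-sided, adjusted p = 2e-05 over 4 relations). Leaving out the 2 samples whose rank lay farthest from the median gave an r of 0.482. The relation held within block 2 (r 0.464, rho 0.473, permutation p = 1e-05, adjusted p = 2e-05, r 0.458 without 2 samples). It was not found in block 1 (r -0.220, permutation p = 0.179, adjusted p = 0.239; rho -0.169, p = 0.301, adjusted p = 0.301; r -0.162 without 2 samples). Nor was it found in block 3 (r 0.0792, permutation p = 0.344, adjusted p = 0.344; rho 0.0975, p = 0.244, adjusted p = 0.301; r 0.0899 without 2 samples). These relations count each sample separately, although samples with the same or neighbouring numbers had similar index values. The p-values may therefore be too small. What the order of the title numbers stands for was not tested.

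**Figure D2:**
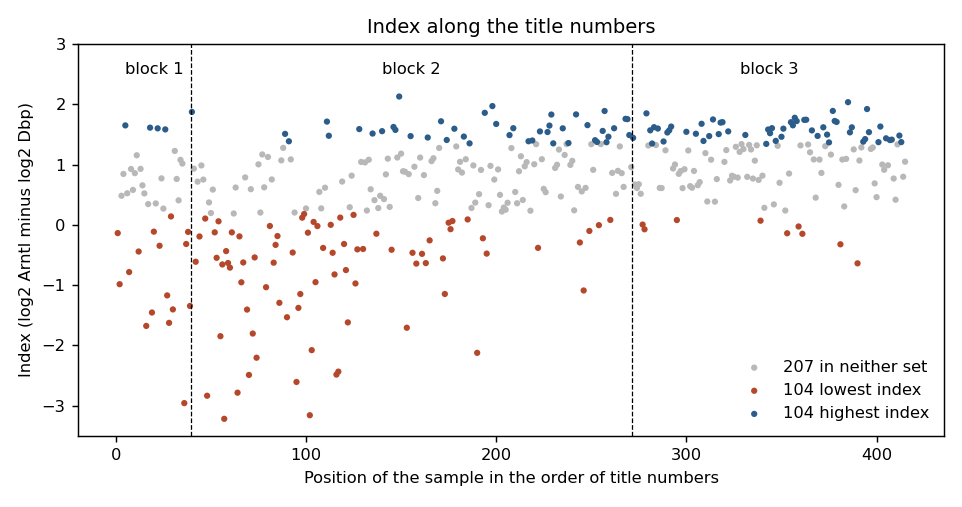
Index of each sample in the order of the title numbers, coloured by set, with dashed lines at the borders of the 3 blocks. Block 3 holds 56 high-set samples (53.8% of the set) and 9 low-set samples (8.65%), and no sample of it lies below -0.64.

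Samples with the same title number had similar index values. Resemblance is the mean product of the deviations of both samples from the overall mean, divided by their mean square. It is 1 for identical pairs and near 0 for pairs drawn at random from all samples. No block level was taken out, so unrelated samples of a block that lies away from that mean also score above 0. For the index, the median was 1.25 in block 3 against an overall mean of 0.61. Resemblance was 0.591 over same-number pairs, 0.299 over neighbouring pairs with different numbers, and 0.104 over pairs that stood 100 positions apart. The median absolute difference of the index was 0.352 in same-number pairs and 0.712 in neighbours. Both samples of a pair were in the low set 14 times and in the high set 14 times, and 3 pairs had 1 sample in each. By block the resemblance was 0.0325 (9 pairs), 0.650 (49 pairs) and 0.696 (47 pairs). Resemblance of the single genes was 0.631 for Arntl and 0.516 for Dbp, against a median of 0.228 over the genes tested. A higher value than that of Arntl was found in 0.229% of those genes, and a higher value than that of Dbp in 4.04%. These are descriptions, and pairs that share a sample are not independent.

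Reads in genes ranged from 2139163 to 6248214 per sample. The medians were 4624269 in the high set and 4550608.5 in the low set, a difference in mean log2 reads of 0.042 (two-sided permutation p = 0.134, adjusted p = 0.268 over 4 comparisons). In block 1 the 4 high-set samples had a median of 3676889 reads against 4449729 in the 16 low-set samples (mean log2 difference -0.304, exact two-sided permutation p = 0.0184, adjusted p = 0.0736). In blocks 2 and 3 the differences were 0.0343 and 0.0457 (permutation p = 0.399 and 0.411, adjusted p = 0.411 for both). The markers of the tissue and of other cell types could not be looked up by symbol here, so the tissue label was not checked against them.

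The first comparison asked which other transcripts differ between the sets. Of 16129 genes tested, 2987 (18.5%) had an adjusted p under 0.05 (limma on log2(FPKM + 1) with the block as a covariate, Benjamini-Hochberg over all genes tested). They are called here, and 1423 of them were higher (8.82%) and 1564 lower (9.7%) in the high set. Most differences were small: the median absolute difference of the called genes was 0.12 log2 units, with 0.06 and 0.29 as the 10th and 90th percentiles, against a median of 0.05 over all genes tested. A difference of at least 0.5 was found in 70 of the called genes (0.434%), 29 higher (0.18%) and 41 lower (0.254%), and a difference of at least 1 in 2. The medians of the rule's own genes, which chose the sets, differed 1.77 and 2.54 times. Those are ratios of FPKM without the block covariate, on another scale than the log2 differences above. No gene tested had levels that did not overlap between the sets (0%).

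The called genes kept their direction to different degrees in the 3 blocks. Within block 2, the direction matched the pooled one in 100% of the 2987 genes, within block 3 90.1%, and within block 1 60.9%. Of the 70 genes with at least 0.5, the sign was kept by 49 in block 1, 70 in block 2 and 69 in block 3, and 48 kept it in all 3. Tested within 1 block, 11 genes were called in block 1 (4 high-set samples), 2986 in block 2 and 44 in block 3 (9 low-set samples). The pooled values carry the same samples as the blocks, so the shared sign is a description. Within block 2 the index was higher at higher title numbers, and the block covariate does not remove an order inside a block. Set and title order are therefore partly confounded there. With blocks cut at gaps above 250, 3362 genes were called, 2695 of them among the 2987. Whether title order accounts for called genes was not tested further.

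The second comparison asked whether the same genes followed the index in the middle samples, which the sets did not use. A slope along the index was called for 0.626% of the genes tested, 84 rising (0.521%) and 17 falling (0.105%). Of these, 99 were also called between the sets, all 99 in the same direction, which is 98.02% of the list from the middle and 3.31% of the list from the extremes. Among the 2987 genes called between the sets, the slope in the middle had the same direction in 2805 (93.9%), and among the 70 genes with at least 0.5 in 65. Over all genes tested the directions matched in 71.5%. Some middle samples shared a title number with a sample of a set, and same-number samples had similar index values. The middle is therefore not independent of the sets. The 99 genes called in both comparisons were 83 that rose with the index and 16 that fell.

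**Figure D3:**
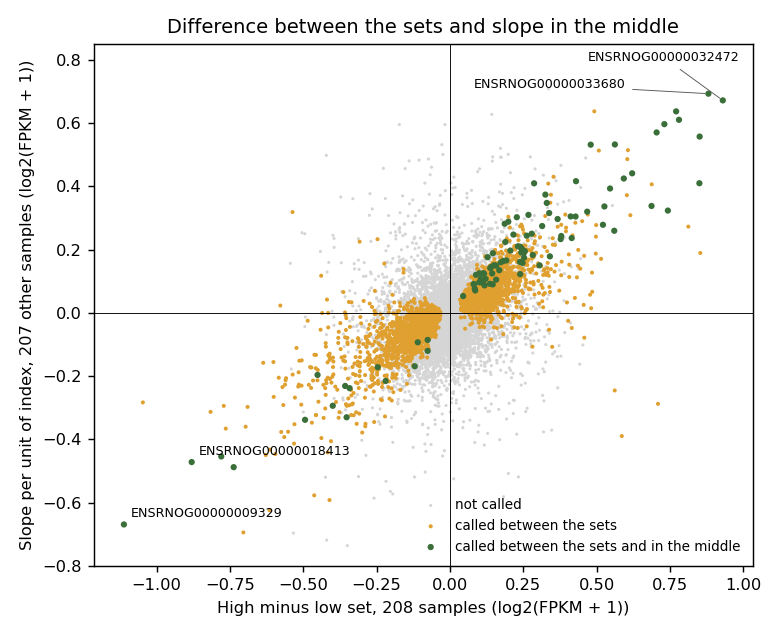
Difference between the sets (x axis) against the slope per unit of index in the middle samples (y axis), both in log2(FPKM + 1), 1 point per gene tested (16129). Green points are the 99 genes called in both, all of which lie in the lower left or the upper right of the plot, and 4 of them are labelled by identifier.

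Of these 99 genes, those with at least 10 mean reads were ranked by the size of their difference, and 4 identifiers stand for the largest falls and rises. Their symbols are not paired with them in the files or tables used here, so their functions are not described. ENSRNOG00000009329 fell most. Its FPKM ran from 16.2 through a median of 35.3 to 65.5 in the low set, from 6.77 through 22.3 to 44.4 in the middle and from 6.80 through 16.3 to 30.2 in the high set. All high-set samples lay below the median of the low set, although 53 of them were within its range and 24 low-set samples were within the range of the high set. The gene fell by 1.11 log2 units (SE 0.06, adjusted p = 1.50e-38, limma), and by 0.67 per unit of index in the middle (SE 0.10, adjusted p = 2.61e-07).

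ENSRNOG00000018413 fell next. Its FPKM ran from 14.7 through 25.7 to 41.7 in the low set, from 9.46 through 17.9 to 28.2 in the middle and from 7.66 through 13.9 to 21.6 in the high set. Again all high-set samples lay below the median of the low set, and 18 low-set samples were within the range of the high set. The gene fell by 0.88 log2 units (SE 0.04, adjusted p = 3.79e-46, limma), and by 0.47 per unit of index in the middle (SE 0.05, adjusted p = 4.99e-16). Its Pearson's r with the index over all samples was -0.825, the lowest of all genes tested, and in the middle its r was 0.603 with Dbp and -0.274 with Arntl. These correlations share the scaling of the samples and carry no test.

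ENSRNOG00000032472 had the largest rise. Its FPKM ran from 3.44 through 11.5 to 32.6 in the low set, from 5.28 through 14.2 to 47.5 in the middle and from 7.75 through 19.9 to 43.7 in the high set. The ranges overlapped widely, with 89 low-set samples inside the range of the high set, and 91 high-set samples (87.5%) lay above the low-set median. The gene rose by 0.93 log2 units (SE 0.08, adjusted p = 1.37e-21, limma), and by 0.67 per unit of index in the middle (SE 0.10, adjusted p = 1.32e-06).

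ENSRNOG00000033680 rose next. Its FPKM ran from 3.06 through 19.8 to 37.6 in the low set, from 7.79 through 28.1 to 60.8 in the middle and from 16.1 through 36.2 to 55.97 in the high set. Of the high-set samples, 97.1% lay above the low-set median. The gene rose by 0.88 log2 units (SE 0.07, adjusted p = 6.19e-22, limma), and by 0.69 per unit of index in the middle (SE 0.09, adjusted p = 3.99e-10).

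The 4 genes kept their direction in each block, a description, since they were picked by the pooled difference of the same samples. The differences in blocks 1, 2 and 3 were -1.12, -1.20 and -0.80 for ENSRNOG00000009329, and -1.11, -0.91 and -0.69 for ENSRNOG00000018413. They were 0.88, 0.98 and 0.76 for ENSRNOG00000032472, and 0.94, 0.93 and 0.66 for ENSRNOG00000033680. With 1 block alone, the adjusted p of ENSRNOG00000032472 was 0.0865 in block 1 and 0.0552 in block 3, and that of ENSRNOG00000033680 was 0.0803 in block 1, so these are not called there. Among these 4 genes alone, the falls were larger than the rises against their spread. The r with the index was -0.720 and -0.825 for the falling genes and 0.472 and 0.568 for the rising ones. Resemblance of same-number samples was 0.451 and 0.468 for the falling genes and 0.226 and 0.202 for the rising ones, around the median of all genes tested for the latter.

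**Figure D4:**
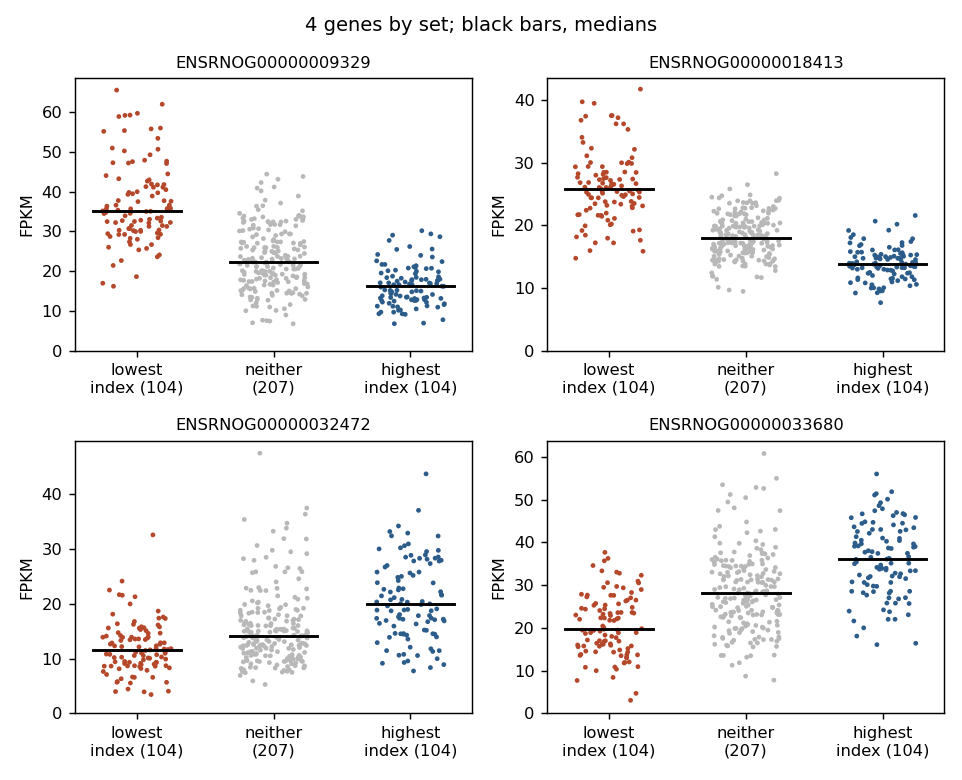
FPKM of the 4 genes named by identifier in the low set, the middle and the high set, 1 point per sample with the median as a bar. The medians fall from 35.3 to 16.3 and from 25.7 to 13.9, and rise from 11.5 to 19.9 and from 19.8 to 36.2, from the low to the high set.

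The 10 largest falls among the 99 genes spanned -1.11 to -0.34 log2 units with a median of -0.47, and the 10 largest rises spanned 0.69 to 0.93 with a median of 0.78. All 20 genes had the pooled direction in each of the 3 blocks. Since they were ranked by the pooled difference, which carries the same samples, the shared direction is a description. Likeness to the index was the property of few genes. Pearson's r with the index over all samples was 0.5 or more for 17 genes and -0.5 or less for 9, beyond 0.7 in size for 2 positive and 4 negative genes, and beyond 0.8 for 1 and 2. The median absolute r was 0.0848 over all genes tested. The gene with the highest r, 0.851, ran from 4.40 through 12.4 to 21.1 FPKM in the low set and from 12.9 through 24.2 to 41.9 FPKM in the high set. It rose by 0.85 log2 units (SE 0.05, adjusted p = 3.59e-34, limma), and by 0.41 per unit of index in the middle (adjusted p = 7.17e-09).

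The third comparison asked whether levels bend along the index, a shape that a comparison of 2 ends cannot show. A quadratic term was called for 1.62% of the genes tested: 0.899% bent upward and 0.719% downward. Samples in the long tail of low index weigh heavily in such a fit, and whether the bends rest on them was not tested. Of the upward genes, 75.9% had their lowest fitted level between the 5th and 95th percentile of the index (-1.40 and 1.71), at a median of -0.78. The sets differed in 81.4% of the upward genes, which were higher in the high set with 2 exceptions. Of the downward genes, 95.7% had their highest fitted level inside these limits, at a median of -0.23, and 43 (37.1%) were called between the sets, 40 of them lower in the high set. The overlap was 61.7% of the bent genes and 5.39% of the genes called between the sets.

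The bend divided the largest rises. Of the 10, 8 bent upward, 1 bent downward and 1 was not called. When the samples were cut into 10 bins of the index, the median level of the 8 upward genes, relative to each gene's mean, was -0.36 and -0.34 log2 units in the lowest bins. It passed 0.01 in bin 6 and reached 0.40 in the highest bin, a shape that follows from choosing genes called for an upward bend in these same samples. The bins are not adjusted for block: the lowest held 1 sample of block 3 and the highest 22. The other 2 rising genes stood at -0.91 in the lowest bin and -0.33 in the next, and at 0.39 in the highest. Arntl itself had -0.97, -0.33 and 0.41. The closeness is a description: Arntl is part of the index that made the bins. The 2 genes are also those left when the upward bends in these same samples were set apart. Dbp went from 1.23 and 0.61 in the lowest bins to -0.72 in the highest. Of the 10 largest falls, 3 bent downward and none upward, and their median went from 0.40 in the lowest bin to -0.36 in the highest. Each gene named by identifier had a called bend, so its change along the index was not even. The bend was downward for ENSRNOG00000009329 (adjusted p = 0.00147, limma) and ENSRNOG00000018413 (adjusted p = 1.03e-06). It was upward for ENSRNOG00000032472 (adjusted p = 0.00119) and ENSRNOG00000033680 (adjusted p = 0.00220).

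**Figure D5:**
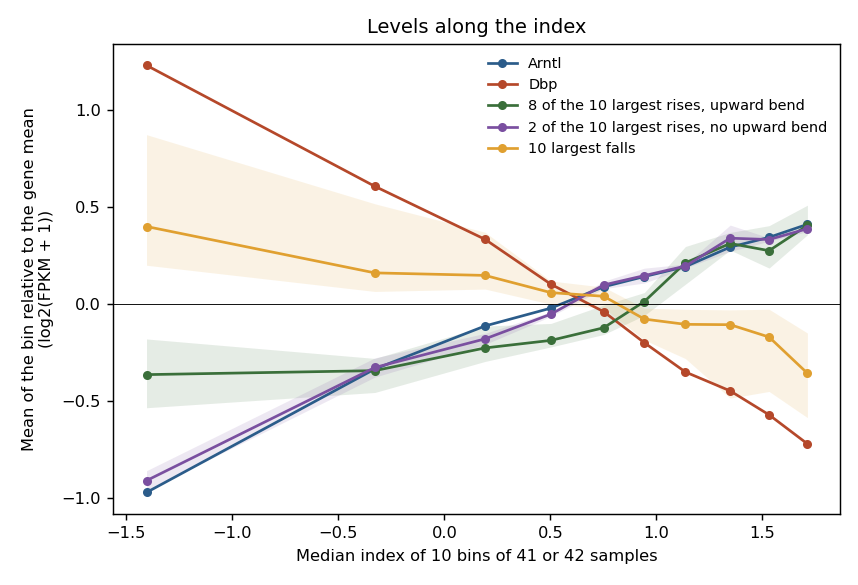
Mean level in 10 bins of the index, relative to the mean of each gene, in log2(FPKM + 1), for Arntl, Dbp, the 8 largest rises with an upward bend, the other 2 largest rises and the 10 largest falls. Lines are medians over the genes of a list and shading runs from the lowest to the highest gene; the 8 bent genes, chosen for their bend in these samples, are nearly level over the lowest 2 bins (-0.36 and -0.34), where Arntl moves from -0.97 to -0.33.

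The fourth comparison asked whether the difference between the sets itself differed between blocks. The interaction of set and block was called for 1686 genes (10.5%), of which 17.3% were called between the sets and 3 were among the 70 with a difference of at least 0.5. The count did not hold under other settings. Without the shallowest of the 4 high-set samples of block 1, which had 2617924 reads, no gene was called (0 by limma, with 2248 genes at an unadjusted p under 0.05, against 4561 with the sample). No other single library was left out for comparison. With all samples kept and log2 reads as a covariate the count was 0 as well (2685 genes at an unadjusted p under 0.05). With blocks 2 and 3 alone the count was also 0 (1327 genes at an unadjusted p under 0.05, 8.23% of those tested). Without the shallowest high-set sample of block 1 the comparison of the sets called 3154 genes, of which 2774 were among the 2987. For the 4 genes named by identifier the adjusted p of the interaction was 0.170 for ENSRNOG00000009329, 0.180 for ENSRNOG00000018413, 0.721 for ENSRNOG00000032472 and 0.543 for ENSRNOG00000033680.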

How the data were processed

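The deposited table held 18358 rat genes by Ensembl identifier in 415 samples, and 0 columns stayed without a sample. The authors' values are FPKM, worked out from the values since the header names no unit: 100% came out as whole reads times a gene and a sample factor (tolerance 0.001). STAR, Picard, featureCounts and DESeq2 are named in the submitters' processing notes, without versions or roles. The genome build is not given in the sources used here. Low genes are limited by 2139163 to 6248214 reads per sample.

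Genes with FPKM above 1 in at least 20% of samples were kept, and the 2 genes of the rule were left out, which left 16129. Values were log2(FPKM + 1), and a fold change on this scale understates the change of low genes. The sets had 104 samples each (208 in all), the middle 207, and the blocks 39, 232 and 144. Title numbers gave 105 same-number pairs, 317 neighbouring pairs and 315 pairs 100 positions apart. All fits were made with limma 3.58.1 under R 4.3.3, adjusted by Benjamini-Hochberg and checked on simulated data. Permutations numbered 100000, or all where few samples allowed an exact test. Since the values are FPKM, voom on whole reads served only as an alternative.

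Named genes were to be the clock genes, the largest differences called between the sets and in the middle, the strongest bends and the highest and lowest correlations with the index. The table of gene names at hand (RefSeq, GRCr8) matched 0 of 18358 identifiers, so only 2 identifiers per direction are named. The lists of clock, metabolic and cell type genes were not run. Both promoters were matched by symbol (2 of 2). The samples, lists and tests were chosen with earlier results of these data known.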

Additional observations from a re-analysis of the deposited data

Results flagged for a closer look

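The test of the difference between blocks called 1686 genes, whose high-minus-low difference was not the same in the 3 blocks by the interaction test in limma. Block 1 held 4 high-set samples, and the shallowest had 2617924 reads against a highest of 4612622. Leaving out that sample brought the count to 0 (2248 genes at an unadjusted p under 0.05), and blocks 2 and 3 alone gave 0 (1327 genes). With log2 reads as a covariate the count was 0 as well (2685 genes, 16.6% of those tested). No other library was left out alone, and what set the shallowest library apart from the other 3 was not tested.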

How the results depend on the processing

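The count of 2987 genes called between the sets stayed within 1.5 times under 18 of 22 alternatives, where it ran from 2063 to 4381. Among these were the title number as a random block (2788 genes) and 1 sample per title number (2448 genes). A similar count need not be the same list: the 2063 genes called with 42 samples per set included 1595 of the 2987 (53.4%). As a share of the genes tested, the 18.5% became 29.5% with samples ranked by Arntl alone, 31.7% without the block covariate, 0.0682% within block 1 and 0.273% within block 3. Voom on whole reads called 3175 genes. The 0.434% with a difference of at least 0.5 became 0.961% with a pseudocount of 0.1, 1.10% with 42 samples per set, 0.905% with voom, and 0.0558%, 0.763% and 0.105% within blocks 1, 2 and 3. Array weights gave 1.10% of genes in the middle against 0.626%, and 3.77% of bent genes against 1.62%. The 10.5% for the interaction became 2.86% with quantile normalization, 0.446% without samples under 3500000 reads, and 0 with log2 reads as a covariate, with blocks 2 and 3 only and without the shallowest high-set sample of block 1. The cause of the other changes was not tested. Fewer samples were tested within blocks and with 42 per set. The 4 identifiers kept their direction in each of 88 values under these alternatives, and 3 values, all within block 1 or 3, passed the threshold no longer. The alternatives without samples under 3500000 reads, without the shallowest high-set sample and with blocks 2 and 3 only were chosen after the data were seen. Of genes under 10 mean reads 6.47% were called, and of those with 1000 or more 30.9%, and whether depth accounts for this was not tested.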

Other observations

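The sets depended more on Dbp than on Arntl. Ranked by Dbp alone, 96 low-set samples (92.3%) and 89 high-set samples (85.6%) stayed in the same set, and ranked by Arntl alone 92 (88.5%) and 76 (73.1%) did. No sample changed to the opposite set with Dbp, and 1 did with Arntl. Of the 2987 genes called between the sets, 2244 were also called with the Dbp ranking, which called 2747, and 2163 with the Arntl ranking, which called 4759. All shared genes had the same direction, a comparison in which the rankings share most of their samples.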
